A study of Mus musculus with 8 samples.

Results

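The genes described here are 9 transcription factors of the naive pluripotency network in the mouse, Zfp42, Esrrb, Nr5a2, Nr0b1, Klf2, Klf4, Klf5, Tfcp2l1 and Tbx3. They were taken by gene symbol from a table of 20153 genes, each symbol had 1 entry, and all 9 passed the filter on low values, which asks for 1 FPKM in 2 of the 8 libraries. RNA had been sequenced from 8 libraries in 4 groups of 2. Embryonic germ cells (EGCs) are pluripotent lines that grow out when germ cells are placed in culture. Here they were lines 4 and 7 of the Oct4gfpXCD1 strain, derived from sorted E9.5 primordial germ cells, grown with serum and LIF on mouse embryo fibroblast feeders, and collected at passage 6. PGC-like cells (PGCLCs) had been made in floating aggregates, by way of epiblast-like cells, from BVSC embryonic stem cells kept in 2i and LIF on laminin. Induced PGCs (iPGCs) had been made from the same BVSC stem cells by a hanging drop method, and both kinds of induced cell were labelled passage 21. Primordial germ cells (PGCs) found the germ line, and those sequenced were from E9.5 embryos of the Oct4gfpXCD1 strain and were never cultured. Starting cell numbers were 500 for each EGC library, 300 to 500 for PGCLCs, 1500 for iPGCs and 250 for PGCs. EGCs and PGCs share a strain, and PGCLCs and iPGCs share their stem cells and passage label. Otherwise strain, passage, medium and starting cell number differ together with the groups, so their effects cannot be told apart from those of cell type. In bulk samples such as these, fewer expressing cells and less RNA per cell cannot be told apart either.

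The naive state is that of the epiblast before implantation and of mouse embryonic stem cells kept with LIF. LIF acts through Stat3, which raises Klf4 and Tfcp2l1, while inhibition of Gsk3 relieves Tcf7l1 repression of Esrrb, and the factors then maintain each other. Most of them are turned off as the epiblast becomes primed after implantation, and primordial germ cells take up part of the network again.

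The 250 bases before the transcription start are shown for Zfp42, Klf2 and Klf4, because their group means were ordered differently, with the highest in EGCs for Zfp42, the lowest in EGCs for Klf2 and the lowest in PGCs for Klf4. They are from RefSeq (GRCm38.p6), 5′ to 3′ on the strand of the gene. The table held starts for 7 of the 9 genes, and Klf5 and Tbx3 were not among them. The Zfp42 window is chr8:43307010-43307259 on the minus strand, the Klf2 window chr8:72318812-72319061 on the plus strand, and the Klf4 window chr4:55532476-55532725 on the minus strand. RefSeq starts differ from the GENCODE gene bounds given below, and the Klf2 window runs past the GENCODE start at chr8:72319033. Capitals mark matches to any of 7 motifs searched on both strands.
Zfp42: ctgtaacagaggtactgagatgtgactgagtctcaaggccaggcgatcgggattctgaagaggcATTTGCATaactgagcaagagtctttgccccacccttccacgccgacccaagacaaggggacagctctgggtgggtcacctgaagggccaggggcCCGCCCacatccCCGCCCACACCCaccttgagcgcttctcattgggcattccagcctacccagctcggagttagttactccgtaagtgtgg
Klf2: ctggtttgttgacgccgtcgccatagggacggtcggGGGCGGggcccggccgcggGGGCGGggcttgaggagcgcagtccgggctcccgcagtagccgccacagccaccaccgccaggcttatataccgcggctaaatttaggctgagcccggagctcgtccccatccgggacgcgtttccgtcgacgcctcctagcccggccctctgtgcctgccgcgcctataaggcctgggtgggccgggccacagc
Klf4: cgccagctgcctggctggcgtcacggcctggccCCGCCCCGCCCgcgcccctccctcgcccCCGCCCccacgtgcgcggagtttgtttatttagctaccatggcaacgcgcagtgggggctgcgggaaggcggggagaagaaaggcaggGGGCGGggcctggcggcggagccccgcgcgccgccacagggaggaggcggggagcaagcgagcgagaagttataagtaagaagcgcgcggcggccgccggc
The Zfp42 window held 1 octamer ATTTGCAT, the site type read by Oct4, at -186 from the start, counted upstream from the first transcribed base. It also held 1 Klf motif GGGNGTGG, on the opposite strand at -75, and GC boxes GGGCGG on the opposite strand at -91 and -79, and the GC box at -79 overlaps the Klf match. The Klf2 window held GC boxes at -214 and -195, and the Klf4 window held them at -217, -212, -189 and -101. The octamer was present in 1.6% of all 32817 mouse promoter windows of this length, the Klf motif in 15.9% and the GC box in 32.7%. The orphan nuclear receptor motif AAGGTCA (4.08% of windows), the T-box motif AGGTGTGA (1.12%), the Stat motif TTCCNGGAA (0.914%) and the TATA box TATAAA (12.4%) were not among the letters of these 3 windows. The Klf2 and Klf4 windows were rich in G and C, at 71.2% and 74.0%, with 29 and 32 CpG dinucleotides. The Zfp42 window had 58.4% G and C and 9 CpG, against medians of 52.4% and 6 over all windows. A match is a description of letters and not a measured site.

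Approximate depths, read from the steps between low FPKM values, were 2.64 M reads for iPGC library 1, 7.73 M for PGCLC library 1 and 13.3 to 15.9 M for the other 6 libraries. As a check of the labels, the germ cell regulator Prdm1 was at 2.34 and 2.20 FPKM in EGCs, 40.6 and 33.0 FPKM in PGCLCs, 21.2 and 22.8 FPKM in iPGCs, and 14.9 and 42.5 FPKM in PGCs. Here and below, values are given for library 1 and then library 2, or for line 4 and then line 7. The germ cell gene Nanos3 was at 0 and 0.906 FPKM in EGCs, 6.98 and 2.30 FPKM in PGCLCs, 0.737 and 2.13 FPKM in iPGCs, and 7.37 and 22.3 FPKM in PGCs. The pluripotency gene Pou5f1 was at 83.5 and 65.8 FPKM in EGCs, 327 and 48.6 FPKM in PGCLCs, 89.9 and 89.0 FPKM in iPGCs, and 24.7 and 72.1 FPKM in PGCs. PGC library 1 stood apart for markers of other cells. It was the lower of the PGC libraries for Esrrb, Klf2, Nr0b1, Tfcp2l1 and Nr5a2, and the higher for Zfp42, Klf4, Klf5 and Tbx3. Blood and macrophage markers summed to 3.22 to 17.1 FPKM in EGCs, PGCLCs and iPGCs, against 161 FPKM in PGC library 1, with 8 of 11 at 1 FPKM or more, and 14.5 FPKM in PGC library 2. Tyrobp, a defining one of these, was listed at 0 in every library. Cd68 was at 3.11 to 16.3 FPKM in EGCs, PGCLCs and iPGCs, and was listed at 0 in PGC library 2. S100a9 (15.6 and 8.77 FPKM) and Fcer1g (21.4 and 4.85 FPKM) were present in both PGC libraries. Both were listed at 0 in every EGC, PGCLC and iPGC library. Fibroblast markers summed to at most 5.09 FPKM in the culture-derived groups, against 24.9 FPKM in PGC library 1, with 8 of 11 at 1 FPKM or more, and 4.79 FPKM in PGC library 2. Gut and extraembryonic endoderm markers summed to 73.2 to 221 FPKM in the culture-derived groups, against 196 and 53.2 FPKM in PGCs, and trophoblast markers to 8.23 to 47.0 FPKM, against 33.7 and 2.89 FPKM in PGCs. Of the endoderm markers, Epcam was at 46.8 to 127 FPKM in every library. Afp was at 82.6 FPKM and Apoa1 at 53.0 FPKM in PGC library 1, against at most 0.0559 and 1.97 FPKM in the others. Spink3 was at 60.3 and 32.8 FPKM in iPGCs and at most 1.15 FPKM in the others. Cldn6 was at 2.31 to 73.2 FPKM in the culture-derived groups and at most 0.290 FPKM in PGCs. Endothelial markers summed to 28.4 to 140 FPKM in the culture-derived groups and to 29.1 and 63.7 FPKM in PGCs, and their members did not move together. Cdh5, Kdr, Tie1, Emcn and Flt1 were at 1.18 FPKM or less in every library. Pecam1, which pluripotent and germ cells also express, was at 15.2 to 88.4 FPKM, Egfl7 reached 76.9 FPKM and Eng 25.5 FPKM in EGC line 4, and Tek was at 11.96 and 21.5 FPKM in PGCLCs, against 0.357 and 0 FPKM in PGCs. Esam was at 2.15 FPKM or less in every library, and Cldn5 reached 5.58 FPKM in PGCLC library 1. The part of these transcripts in the values of the 9 factors was not tested, and differences given below that move by over 1.5 times without 1 library stand with that value.

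Zfp42 (Rex1), a zinc finger gene of the Yy1 family whose reporters are used to tell naive from primed cells, lies at chr8:43295063-43306980 on the minus strand (GRCm38). It was at 17.0 and 25.1 FPKM in EGCs, 8.33 and 5.37 FPKM in PGCLCs, 4.71 and 9.22 FPKM in iPGCs, and 5.6 and 3.43 FPKM in PGCs. Both EGC lines lay above all 6 germ cell libraries, and the PGCLC, iPGC and PGC values overlapped. Differences were tested with limma on log2(FPKM + 1) over 11083 genes, with Benjamini-Hochberg adjustment and a threshold of 0.05. The log2 difference of EGCs was 2.00 ± 0.59 (SE) against PGCs (adjusted p = 0.145), 1.49 ± 0.59 against PGCLCs (0.323) and 1.5 ± 0.59 against iPGCs (0.435), and none passed. The PGC comparison gave the lowest adjusted p of any of the 9 genes in a comparison of 2 groups.

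The nuclear receptors followed other orders. Esrrb, an orphan receptor that can stand in for Nanog in stem cells and is also needed for normal numbers of germ cells, lies at chr12:86361117-86521628. It was at 22.9 and 20.6 FPKM in EGCs, 42.2 and 44.4 FPKM in PGCLCs, 51.0 and 43.0 FPKM in iPGCs, and 26.6 and 34.3 FPKM in PGCs. The 2 EGC lines were the lowest of the 8 libraries, the PGCs came next, and the PGCLC and iPGC values overlapped above them. The log2 difference of EGCs was -0.96 ± 0.41 against PGCLCs (limma adjusted p = 0.346) and -1.07 ± 0.41 against iPGCs (0.426). Against PGCs it was -0.46 ± 0.41 (0.613), and -0.28 without PGC library 2. PGCLCs differed from PGCs by 0.51 ± 0.41 (0.533). This value was 0.33 without PGC library 1 and turned to -0.034 when the libraries were set to equal medians. Esrrb had the smallest standard error of the 9 genes and was the most abundant of them by FPKM in 6 of the 8 libraries, Zfp42 leading in EGC line 7 and Klf2 in PGCLC library 1. Its values lay between the 84.6 and 92.5 percentile of tested genes in their library, while those of Klf4 lay between 6.37 and 72.

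Nr5a2 (Lrh-1), a receptor that sustains Oct4 in the epiblast, lies at chr1:136842571-136960448 on the minus strand. It was at 9.61 and 4.18 FPKM in EGCs, 23.5 and 9.0 FPKM in PGCLCs, 7.37 and 10.1 FPKM in iPGCs, and 1.91 and 10.9 FPKM in PGCs. All pairs of groups overlapped, with PGC library 1 below every other library and PGC library 2 above all but PGCLC library 1. Nr0b1 (Dax1) lacks the usual DNA-binding domain and acts mostly as a corepressor of other receptors, among them those of the Nr5a family. It lies at chrX:86191764-86195947 and was at 12.1 and 2.17 FPKM in EGCs, 23.7 and 9.88 FPKM in PGCLCs, 16.6 and 18.1 FPKM in iPGCs, and 2.52 and 2.85 FPKM in PGCs. All 4 PGCLC and iPGC libraries lay above both PGC libraries, and EGC line 7 was below both PGC libraries. The log2 difference from PGCs was 2.15 ± 0.76 in PGCLCs (limma adjusted p = 0.171) and 2.32 ± 0.76 in iPGCs (0.156). EGCs lay below iPGCs by a log2 difference of -1.51 ± 0.76 (0.540) with no overlap, which was -2.53 without EGC line 4 and -0.49 without line 7.

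**Figure D1:**
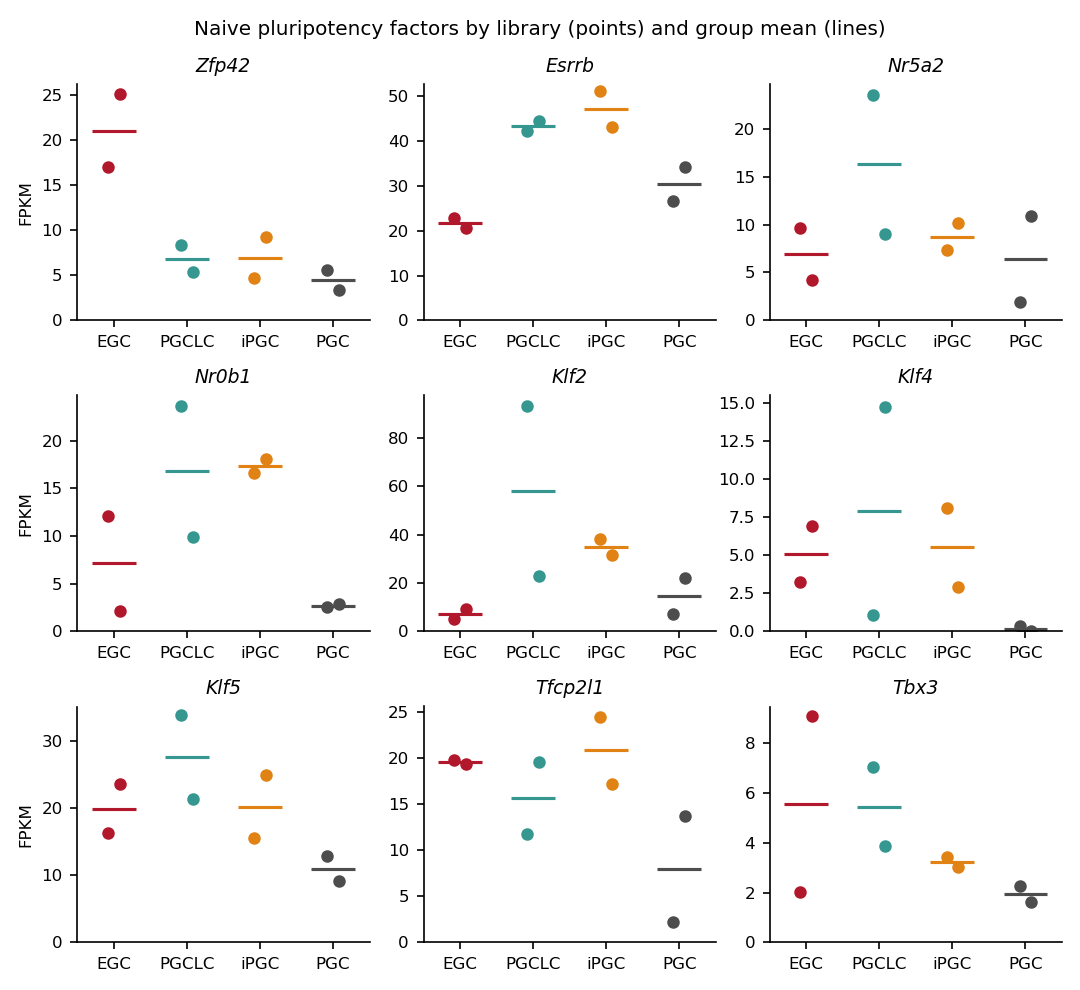
FPKM of each factor (vertical axes, linear and starting at 0, each on its own scale) in the 4 groups, with a point for each library and a line at the group mean. Zfp42 is highest in both EGC lines (17.0 and 25.1 FPKM), Klf2 and Esrrb have their lowest group mean in EGCs, and Klf4 is at 0.349 and 0 FPKM in PGCs.

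The Klf factors Klf2, Klf4 and Klf5 bind similar GC-rich motifs and can in part replace each other in stem cells, where loss of all of them together ends self-renewal. Klf2, which Mek signalling marks for degradation, lies at chr8:72319033-72321656. It was at 5.14 and 9.13 FPKM in EGCs, 93.1 and 22.8 FPKM in PGCLCs, 38.1 and 31.7 FPKM in iPGCs, and 7.39 and 22.0 FPKM in PGCs. Both EGC lines lay below all 4 induced libraries, and the EGC and PGC values overlapped. The log2 difference of EGCs was -2.59 ± 0.76 against PGCLCs (limma adjusted p = 0.219) and -2.18 ± 0.76 against iPGCs (0.388). The PGCLC value was -1.59 without PGCLC library 1. PGCLCs lay above PGCs by 1.77 ± 0.76 (0.247) and iPGCs lay above them by 1.36 ± 0.76 (0.359). Without PGC library 1 these were 1.04 and 0.63, and without PGC library 2 iPGCs lay above by 2.09. The PGCLC value was 0.78 without PGCLC library 1 and 2.76 without PGCLC library 2. In PGCLC library 2 and PGC library 2 the values were nearly equal.

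Klf4, a direct target of Stat3 and 1 of the reprogramming factors, lies at chr4:55527143-55532466 on the minus strand. It was at 3.25 and 6.93 FPKM in EGCs, 1.07 and 14.8 FPKM in PGCLCs, 8.11 and 2.94 FPKM in iPGCs, and 0.349 FPKM in PGC library 1, and it was listed at 0 in PGC library 2. All 6 libraries of EGCs, PGCLCs and iPGCs lay above both PGC libraries, and these 3 groups overlapped one another. The value in PGC library 1 corresponds to about 17 reads. The log2 difference from PGCs was 2.32 ± 0.97 in EGCs (limma adjusted p = 0.273), 2.30 ± 0.97 in PGCLCs (0.242) and 2.37 ± 0.97 in iPGCs (0.229). The PGCLC value was 3.76 without PGCLC library 1 and 0.83 without PGCLC library 2. The mean of the 3 groups differed from PGCs by 2.33 ± 0.80 (0.141). A listed 0 may be a failed estimate, so no fold is given.

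Klf5, which is also needed in the trophectoderm, lies at chr14:99298691-99315036. It was at 16.2 and 23.6 FPKM in EGCs, 33.9 and 21.3 FPKM in PGCLCs, 15.5 and 24.9 FPKM in iPGCs, and 12.8 and 9.14 FPKM in PGCs. As for Klf4, all 6 culture-derived libraries lay above both PGC libraries, and the 3 groups overlapped one another. The log2 difference from PGCs was 0.80 ± 0.51 in EGCs (limma adjusted p = 0.473), 1.24 ± 0.51 in PGCLCs (0.234) and 0.80 ± 0.51 in iPGCs (0.422), the iPGC value being 0.48 without iPGC library 2. Within the summed FPKM of the 3 Klf factors, Klf2 made up 20.9% and 23.0% in EGCs, 72.7% and 38.7% in PGCLCs, 61.7% and 53.3% in iPGCs, and 35.9% and 70.7% in PGCs. Klf5 was the most abundant of the 3 by FPKM in both EGC lines and in PGC library 1, and Klf2 in the other 5 libraries, narrowly so in PGCLC library 2.

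**Figure D2:**
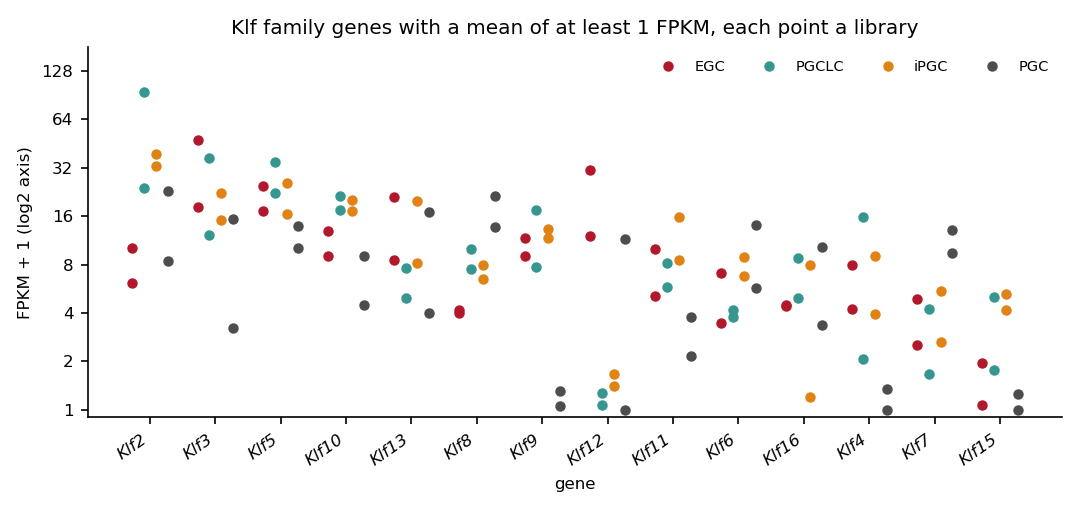
FPKM + 1 on a log2 axis for the 14 Klf genes with a mean of at least 1 FPKM, in order of mean level from left to right, with a point for each library in the order EGC, PGCLC, iPGC and PGC. Klf2 and Klf5 are among the most abundant family members, and Klf4 and Klf9 lie near the bottom of the axis in PGCs.

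Tfcp2l1, a Stat3 target of the grainyhead-like family that is sufficient to hold stem cells in the naive state, lies at chr1:118627945-118685168. It was at 19.8 and 19.3 FPKM in EGCs, 11.8 and 19.5 FPKM in PGCLCs, 24.5 and 17.2 FPKM in iPGCs, and 2.25 and 13.7 FPKM in PGCs. EGC and iPGC values lay above both PGC libraries, and the PGCLC values overlapped them. The log2 difference from PGCs was 1.57 ± 0.72 in EGCs (limma adjusted p = 0.316) and 1.64 ± 0.72 in iPGCs (0.259). Without PGC library 1 these were 0.49 and 0.55, and without PGC library 2 they were 2.66 and 2.73. Over the 3 culture-derived groups it was 1.48 ± 0.59 (0.189), which became 0.39 without PGC library 1 and 2.57 (0.0387) without PGC library 2. No other result of the 9 genes passed in any alternative that was run. Tfcp2l1 shares exon bases with the small nuclear RNA gene Gm23497, so its FPKM could hold reads of both.

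Tbx3, a T-box factor that acts downstream of Akt signalling in stem cells, lies at chr5:119670669-119684724. It was at 2.01 and 9.10 FPKM in EGCs, 7.02 and 3.86 FPKM in PGCLCs, 3.43 and 3.03 FPKM in iPGCs, and 2.27 and 1.62 FPKM in PGCs. PGCLCs lay above iPGCs and PGCs with no overlap, and the EGC lines spanned all PGCLC and iPGC values. The log2 difference of PGCLCs was 1.09 ± 0.72 against PGCs (limma adjusted p = 0.450) and 0.56 ± 0.72 against iPGCs (1.00), the iPGC comparison giving 0.20 without PGCLC library 1 and 0.92 without PGCLC library 2. That of iPGCs against PGCs was 0.53 ± 0.72 (0.721), and it turned to -0.25 under quantile normalization. Exons of Tbx3 overlap those of the antisense gene Tbx3os1. Whether strand was used in counting is not given in the sources used here, so reads of the pair cannot be told apart.

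**Figure D3:**
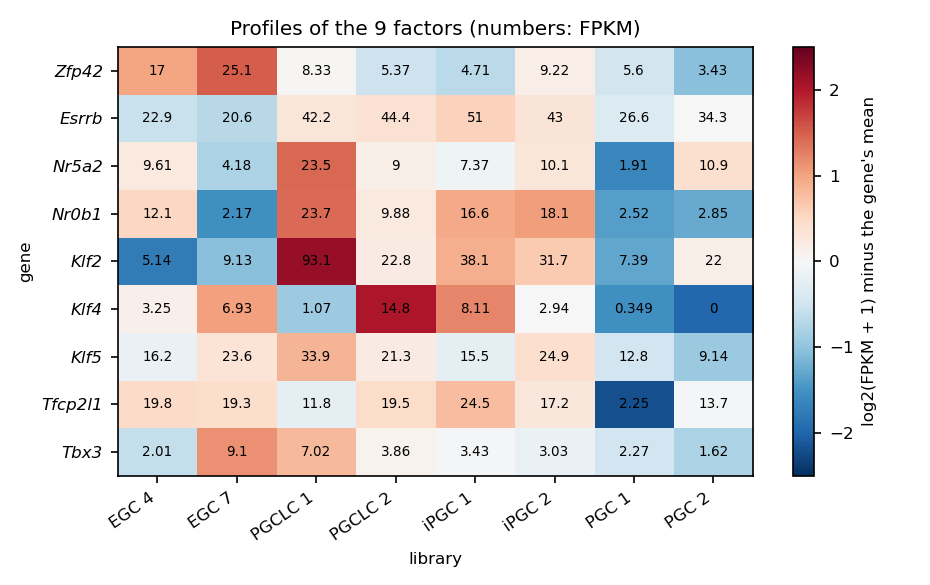
Each factor in each library, coloured by log2(FPKM + 1) minus the mean of that gene over the 8 libraries and printed with its FPKM. Both PGC columns lie below the mean of the gene for Nr0b1, Klf4, Klf5 and Tbx3, and both EGC columns for Esrrb and Klf2, though other columns lie below it too.

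PGCs had the lowest group mean for 7 of the 9 factors, and EGCs for Esrrb and Klf2. Over all tested genes PGCs had the lowest mean for 39.57% and EGCs for 35.47%. Summed over the 9 genes, FPKM was 108 and 120 in EGCs, 245 and 151 in PGCLCs, 169 and 160 in iPGCs, and 61.7 and 97.9 in PGCs. The median absolute log2 gap between the 2 libraries of a group, over the 9 genes, was 0.72 in EGCs, 0.72 in PGCLCs, 0.41 in iPGCs and 0.45 in PGCs. Over all tested genes it was 0.63 in EGCs, 0.70 in PGCLCs, 0.44 in iPGCs and 0.81 in PGCs, so the gap was widest in PGCs there.

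EGCs were compared with PGCs to ask how the network stands once germ cells have become a line. None of the 9 factors passed in limma, in a comparison where 0.74% of tested genes did (82 of 11083). At an unadjusted p below 0.05, 2 were higher in EGCs (Zfp42 and Klf4) and 0 lower, where 9.6% of tested genes were higher. Every EGC library lay above every PGC library for 4 factors, Zfp42, Klf4, Klf5 and Tfcp2l1 (24.1% of tested genes), and below for Esrrb (20% of tested genes). The median log2 difference was 0.81, against 0.07 for all tested genes.

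PGCLCs and iPGCs were compared with PGCs to ask how near cells made in culture come to germ cells of the embryo. For PGCLCs 0 factors passed, where 1.06% of tested genes did, and 4 were higher at an unadjusted p below 0.05 (Klf2, Klf4, Klf5 and Nr0b1), where 15.7% of tested genes were higher. PGCLC values lay above PGC values with no overlap for 6 factors, and for 33.5% of tested genes. The median was 1.24 for the 9 factors and 0.44 for all tested genes. For iPGCs 0 factors passed, where 0.794% of tested genes did, and 2 were higher at an unadjusted p below 0.05 (Klf4 and Nr0b1), where 15.9% of tested genes were higher. iPGC values lay above PGC values with no overlap for 7 factors, and for 39.4% of tested genes. The median was 0.80 for the 9 factors and 0.47 for all tested genes. These comparisons share their PGC libraries with that of EGCs, so their values are given side by side only. Relative to the median of all genes, Nr0b1 differed from PGCs by 1.72 in PGCLCs and 1.85 in iPGCs, and Klf4 by 2.26 in EGCs, 1.86 in PGCLCs and 1.90 in iPGCs. Nr0b1 in EGCs overlapped with PGCs, and its log2 difference of 0.81 became -0.22 without EGC line 4 and 1.83 without line 7.

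**Figure D4:**
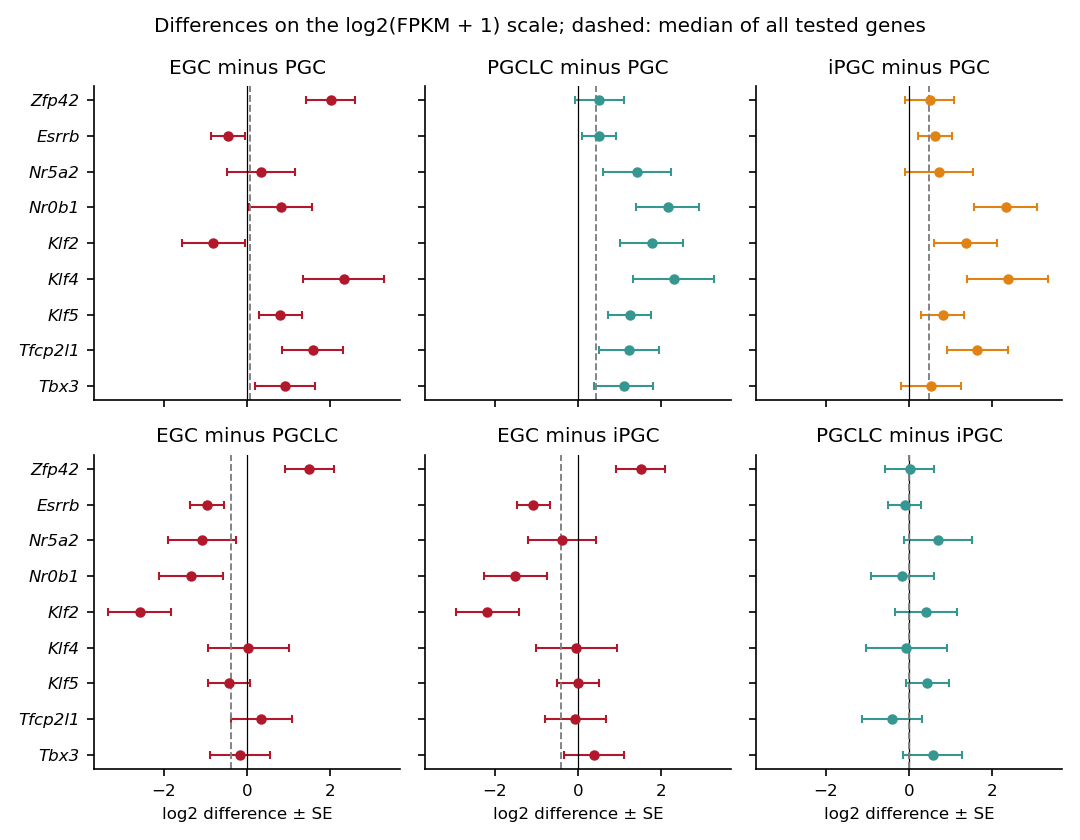
Log2 difference of log2(FPKM + 1) for each factor in the 6 comparisons, with bars of ± 1 SE from limma, a solid line at 0 and a dashed line at the median of all tested genes. In EGCs against PGCLCs and against iPGCs, Zfp42 lies to the right (1.49 and 1.5) and Klf2 to the left (-2.59 and -2.18), and in PGCLCs against iPGCs the values lie between -0.41 and 0.70.

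Set against the induced cells, EGC values lay on either side, and no difference passed. Against PGCLCs, 0 factors passed where 0.0993% of tested genes did, with Zfp42 higher and Klf2 and Esrrb lower at an unadjusted p below 0.05, where 2.73% of tested genes were higher and 11.1% lower. Against iPGCs, 0 factors passed where 0.117% of tested genes did, with Zfp42 higher and Klf2 and Esrrb lower at an unadjusted p below 0.05, where 1.67% of tested genes were higher and 8.64% lower. Both comparisons use the same EGC libraries. No overlap was seen against PGCLCs for 1 higher factor (11.8% of tested genes) and 2 lower ones (34.2%). Against iPGCs it was seen for 1 higher factor (10.8%) and 3 lower ones (39.5%), Nr0b1 being the third. The medians of all tested genes were -0.38 and -0.40. The ratio of Esrrb to Zfp42 was 1.35 and 0.821 in EGCs, against 5.07 and 8.27 in PGCLCs, 10.8 and 4.66 in iPGCs, and 4.75 and 10.0 in PGCs. The ratio restates the levels of both genes given above and is no separate support, but it does not depend on the scaling between libraries.

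PGCLCs and iPGCs come from the same stem cells by different routes. Between them 0 factors passed where 0.018% of tested genes did, and 0 were at an unadjusted p below 0.05, where 4.68% of tested genes were. Only Tbx3 had no overlap, with PGCLCs higher (17.3% of tested genes). The median log2 difference was 0.01, and standard errors of 0.41 to 0.97 mean that the factors are not shown to be alike. The mean of EGCs, PGCLCs and iPGCs was also set against PGCs. There 0 factors passed where 2.64% of tested genes did, and Klf4, Nr0b1 and Tfcp2l1 were higher at an unadjusted p below 0.05, where 16.4% of tested genes were higher. Klf4 and Klf5 were higher in all 6 libraries than in both PGC libraries (15.2% of tested genes). In an F test over all 4 groups, 0 of the 9 factors passed where 0.505% of tested genes did, and Zfp42, Klf2 and Nr0b1 were at an unadjusted p below 0.05, where 19.2% of tested genes were.

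The size of difference that could pass bears on these counts. The smallest absolute log2 difference that passed was 2.44 for EGCs against PGCs, 2.45 for PGCLCs against PGCs, 2.52 for iPGCs against PGCs, 3.76 for EGCs against PGCLCs and 3.78 for EGCs against iPGCs. Every difference of the 9 factors was smaller than the smallest passing one of its own comparison, except Tfcp2l1, Nr0b1 and Klf4 in the mean of 3 groups, where it was 1.43.

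Other genes tied to the naive state were described by counts. Of 24 such genes, 23 were tested. In EGCs against PGCs 0 passed the threshold as higher and 1 as lower, where 0.523% of all tested genes passed as higher and 0.217% as lower. By sign alone 15 were higher in EGCs and 8 lower, where 52.3% of all tested genes were higher. In PGCLCs 5 passed as higher (0.938% of tested genes) and in iPGCs 3 (0.749%). Nanog, the homeodomain factor that gives access to the naive state, was at 46.9 and 45.3 FPKM in EGCs, 81.2 and 82.6 FPKM in PGCLCs, 73.2 and 90.9 FPKM in iPGCs, and 6.69 and 16.1 FPKM in PGCs. It rose by a log2 difference of 2.85 ± 0.48 in PGCLCs (limma adjusted p = 0.0420) and by 2.85 ± 0.48 in iPGCs (0.0426). Dppa5a, an RNA-binding protein of pluripotent cells, rose by 4.26 ± 0.60 in PGCLCs (0.0273) and 4.62 ± 0.60 in iPGCs (0.0195). The lysosomal mannosidase gene Manba rose by 3.65 ± 0.58 in PGCLCs (0.0378) and 3.59 ± 0.58 in iPGCs (0.0407). In PGCLCs the chromatin factor Dppa2 also rose, by 3.56 ± 0.60 (0.0420), as did the growth factor gene Fgf4, by 3.34 ± 0.60 (0.0481). Dppa3, which also marks germ cells, fell by 2.91 ± 0.51 in EGCs (0.0488). Of the 10 tested germ cell markers the integrin gene Itgb3 fell as well, by 3.96 ± 0.60 (0.0347). The medians of the list were 0.79 in EGCs, 1.15 in PGCLCs and 1.05 in iPGCs, beside 0.81 in EGCs, 1.24 in PGCLCs and 0.80 in iPGCs for the 9 factors. For the mean of the 3 culture-derived groups, 5 genes of the list passed as higher than in PGCs (2.08% of tested genes).

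Primed and formative genes, which are turned on after the naive state, passed in part. Of 17 tested, 3 passed as higher in EGCs than in PGCs (0.523% of all tested genes), 1 in PGCLCs (0.938%) and 0 in iPGCs (0.749%). As lower, 0 passed. For the mean of the 3 culture-derived groups 2 passed as higher, Tdgf1 and Dnmt3b, where 2.08% of all tested genes did. Tdgf1, which encodes the Nodal co-receptor Cripto, rose by 5.80 ± 0.69 in EGCs (limma adjusted p = 0.0181) and 4.74 ± 0.69 in PGCLCs (0.0273). The Nodal inhibitor gene Lefty1 rose by 5.05 ± 0.74 in EGCs (0.0323), where it was at 32.6 and 31.8 FPKM and was listed at 0 in both PGC libraries. The de novo methyltransferase gene Dnmt3b rose by 4.36 ± 0.76 in EGCs (0.0488). Of 19 input genes of the network (LIF, Stat3, Wnt, Mek and Bmp signalling), 0 passed in any comparison of 2 groups. Pim1, a kinase gene raised by Stat3, passed for the mean of the 3 culture-derived groups at 2.30 ± 0.49 (0.04997, just under the threshold). It was at 9.5 and 16.01 FPKM in EGCs, 19.3 and 19.2 FPKM in PGCLCs, 16.2 and 18.02 FPKM in iPGCs, and 1.18 and 4.45 FPKM in PGCs.

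Among paralogs of the 9 factors, 22 of 31 were tested, and 0 passed between any 2 groups. For the mean of the 3 culture-derived groups 1 passed as higher (2.08% of tested genes) and 1 as lower (0.568%). Klf9, a Klf gene known for its response to hormones, rose by 3.27 ± 0.50 (limma adjusted p = 0.0215). It was at 8.04 and 10.6 FPKM in EGCs, 16.6 and 6.71 FPKM in PGCLCs, 10.7 and 12.3 FPKM in iPGCs, and 0.314 and 0.0625 FPKM in PGCs, and every culture-derived library lay above both PGC libraries. Tbx4, the most abundant of the listed Tbx3 paralogs, which do not include T, and a factor of limb and lung mesenchyme, fell by 3.06 ± 0.55 (0.0322), with at most 1.54 FPKM outside PGCs and 7.11 and 13.4 FPKM in PGCs. Yy1, the paralog of Zfp42, was at 20.97 to 32.6 FPKM in 7 libraries and at 6.06 FPKM in PGC library 2. Nr6a1, the germ cell nuclear factor and the most abundant paralog of Nr5a2, was at 16.9 and 6.78 FPKM in EGCs, 8.18 and 44.9 FPKM in PGCLCs, 20.4 and 13.2 FPKM in iPGCs, and 53.4 and 70.0 FPKM in PGCs. Both PGC values were above those of all other libraries, and its log2 difference in EGCs was -2.40 ± 0.78 (0.180). Klf3, a repressor and the most abundant Klf gene outside the network, ranged over all libraries between 2.22 and 46.4 FPKM, and the Tfcp2l1 paralog Ubp1 between 6.35 and 15.8 FPKM. Nr0b2, Nr5a1 and Esrrg were listed at 0 in every library.

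The blood marker S100a9 differed from PGCs by -3.67 ± 0.52 in EGCs (limma adjusted p = 0.0301), PGCLCs (0.0273) and iPGCs (0.0256). For the mean of the 3 groups it passed at -3.67 ± 0.43 (0.00987) and Fcer1g at -3.52 ± 0.55 (0.0231). Of 12 listed endoderm markers 6 were tested, and 2 passed as higher in iPGCs than in PGCs, where 0.749% of tested genes did. These were Spink3 (4.96 ± 0.64, 0.0194) and Cldn6 (5.87 ± 1.01, 0.0450). The list did not move together. Afp, Gata4, Gata6, Sox7, Foxa1 and Foxa2 were at 0.718 FPKM or less in iPGCs, and Cldn6 was at 18.2 and 20.7 FPKM in EGCs too. Cldn6 passed for the mean too (4.42 ± 0.82, 0.0343), and Spink3 in EGCs against iPGCs (-5.35 ± 0.64, 0.0265). Among the naive, primed, input, paralog and germ cell lists, 25 results passed, the mean of the 3 groups counted, and many depended on the libraries used. Of them, 17 still passed without PGC library 2 and 10 without PGC library 1. Without EGC line 4 or line 7, 4 and 5 still passed, without PGCLC library 1 or 2, 1 and 3, and without iPGC library 1 or 2, 1 each. None of the 9 in PGCLCs or iPGCs alone against PGCs passed with the replicate number as a block (adjusted p = 0.0715 to 0.133). None of the 25 changed direction in any alternative run, but their groups did not overlap, so leaving out a library could not turn them.

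For each factor, the gene with the most similar profile over the 8 libraries was sought among 7964 genes, by the root mean square distance between log2(FPKM + 1) profiles centred on their own means. Such profiles share libraries and their scaling, so the distance is a description. Zfp42 was closest to Stard4 (0.26) and Inadl (0.36), against a median distance of 1.20 over all candidates. Esrrb was closest to Cct7 (0.13) and Appbp2 (0.15), Nr5a2 to Acsl5 (0.24) and Srprb (0.26), and Nr0b1 to Hsdl1 (0.32) and Lsmd1 (0.37). Klf2 was closest to Rnpepl1 (0.35) and Grn (0.36), Klf4 to Dtnb (0.41) and Pmvk (0.41), and Klf5 to Nsmce1 (0.22) and Pmm1 (0.22). Tfcp2l1 was closest to Tanc1 (0.22) and Romo1 (0.24), and Tbx3 to Sp1 (0.22) and Fntb (0.32). Among the 9 factors themselves, Klf5 and Tbx3 were the closest pair (0.40) and Klf2 and Klf4 the farthest (1.79), followed by Zfp42 and Klf2 (1.73).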

How the data were processed

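Per the labels, total RNA from small cell numbers was amplified, spike-in RNA was added, and sequencing gave 50-base single-end reads over 2 lanes, with 2 biological replicates per group. The deposited table holds FPKM computed by the authors, that is, fragments scaled to transcript length in kilobases and to library depth. The submitters' processing notes name TopHat2, Cufflinks and GRCm38 (mm10). Neither versions nor annotation and strand setting were given in the sources used here. No read counts were used.

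Repeated identifiers (15) were reduced to 1 entry each by dropping 18 entries. The 11083 genes reaching 1 FPKM in 2 libraries or more were tested as log2(FPKM + 1). The test was limma 3.58.1 under R 4.3.3, with trended, robust variances estimated from the 8 libraries together. P-values are two-sided, with Benjamini-Hochberg adjustment within a comparison. A log2 difference on this scale understates the change of low genes. Coordinates are from GENCODE M21. The limma step was tested on simulated data.

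The 9 factors and the gene lists were chosen with earlier results of these data known, so neither is independent evidence. All 9 are named. Of the other lists, genes past the threshold are named (at most 5 a list and comparison), and the most abundant paralog of each factor. The GC box motif was added after the sequences were seen. Alternatives were pseudocounts of 0.1 and 5, a filter at 5 FPKM or none, quantile, median and total scaling, no variance trend, fits of the compared groups alone, a replicate block, and fits without each library in turn. Spike-in values were not analysed here.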

Additional observations from a re-analysis of the deposited data

How the results depend on the processing

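Counts of factors passing, all 0 in the main fit, were unchanged in 257 of 258 alternatives. The exception was Tfcp2l1 in the mean of the 3 culture-derived groups against PGCs, so that leaving out 1 library gave 0 to 1 factor higher. Of the 63 log2 differences (9 factors by 7 comparisons), the 30 whose groups did not overlap or whose unadjusted p was below 0.05 were recomputed 520 times, and 517 kept their direction and side of the threshold. Much of this was fixed in advance, so the count does not measure stability. None of the 30 passed in the main fit, and leaving out a library cannot turn the sign where groups do not overlap. Filters, variance settings, the compared-groups fit, the replicate block and leaving out a library of another group do not change the difference itself. Tbx3 in iPGCs against PGCs turned to -0.25 under quantile normalization, and Esrrb in PGCLCs against PGCs to -0.034 with equal library medians. The cause was not tested. Of the other 33 differences, whose groups overlapped, 19 turned sign in at least 1 alternative. Counts at an unadjusted p below 0.05 moved in 59 of 242 alternatives. The 25 passing results of the naive, primed, input, paralog and germ cell lists stayed past the threshold in 166 of 423 alternatives, in 0 with no filter, in 0 with the compared groups alone and in 0 of 9 under the replicate block, and kept their sign in all. Over all genes the number passing was 82 in EGCs against PGCs (0 to 122 in the alternatives), 117 in PGCLCs against PGCs (0 to 289) and 88 in iPGCs against PGCs (0 to 222). It was 11 in EGCs against PGCLCs (0 to 39), 13 in EGCs against iPGCs (5 to 17), 2 in PGCLCs against iPGCs (0 to 5), 293 for the mean of the 3 groups (12 to 547) and 56 in the F test (10 to 100). The shares of passing genes printed beside the factors' counts move with these.

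Replicate numbers 1 and 2 are shared by PGCLCs, iPGCs and PGCs but not by the EGC lines. Deviations of same-numbered libraries correlated at -0.03 for PGCLCs and PGCs, 0.01 for iPGCs and PGCs and 0.06 for PGCLCs and iPGCs, so the numbers were not taken as pairs. With the number as a replicate block in these 6 libraries, the log2 difference of Nr0b1 in iPGCs against PGCs was 2.32 and 0 factors passed, with 2, 10 and 0 genes passing over all genes in the 3 comparisons. The compared-groups fit cannot be made for the mean of 3 groups or the F test. Low depth in iPGC library 1 limits low genes, with about 23 reads behind Zfp42. Groups of 2 libraries let only large differences pass.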

Other observations

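Some paralogs outside the naming rule were chosen after their values were seen. Klf12, a repressor of the Klf family, was at 29.9 and 10.96 FPKM in EGCs, 0.0781 and 0.272 FPKM in PGCLCs, 0.673 and 0.409 FPKM in iPGCs, and 10.6 FPKM in PGC library 1, and was listed at 0 in PGC library 2. Its log2 difference in EGCs was 4.04 ± 1.07 against PGCLCs (limma adjusted p = 0.202) and 3.65 ± 1.07 against iPGCs (0.324). Neither passed, and both EGC lines lay above all 4 induced libraries. Esrra, the paralog of Esrrb that drives mitochondrial genes, was at 17.7 FPKM in PGCLC library 1 and at 2.08 FPKM or less in the other 7 libraries. These values rest on single libraries in part and were not tested further.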
